A study of Mus musculus with 5 samples.

Results

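The metalloprotease genes of the matrix metalloprotease (Mmp), Adam and Adamts families and the tissue inhibitors of metalloproteases (Timp) were described in cells sorted from newborn mouse lung. Members were all genes whose platform symbol begins with Mmp, Adam or Adamts and a number, or is Timp1 to Timp4, leaving out Mmp8 and Mmp9. For a gene with several probe sets, the one with the highest average signal stood for it, among probe sets with 1 gene symbol. This gave 63 members of the 18194 genes on the arrays: 16 Mmp, 4 Timp, 28 Adam and 15 Adamts genes, with 113 probe sets between them. Mmp15, Mmp28, Adamts2 and Adamts17 were not analysed here.

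The RNA came from 5 biological replicates of 1 group, each on 1 Affymetrix array. Pups carried the SPC-GFP transgene, in which the surfactant protein C promoter drives green fluorescent protein, and came from matings of that line with outbred ICR mice. Lungs were taken on postnatal day 2, and GFP-positive cells were collected by flow cytometry after trypsin and EDTA. Titles and source call the cells alveolar type 2, the design text calls them ciliated, and nothing says whether a replicate was 1 pup or a pool. With 1 group there was no treatment, age or genotype to compare, so the comparisons were of each gene with the background of its arrays and of the replicates with each other.

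Matrix metalloproteases are zinc proteases that cut collagens, elastin, proteoglycans and many other proteins outside the cell. ADAM proteases sit in the cell membrane and release the outer parts of growth factors, cytokines and receptors, while ADAMTS proteases are secreted and act on matrix proteoglycans, procollagens and fibrillin microfibrils. TIMPs bind the active sites of these enzymes, and in newborn lung the balance between protease and inhibitor is known for its part in the remodelling of the matrix as alveoli form.

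The deposited values were log2 signals, with array medians of 7.12 to 7.19. As background served, on each array, the 95th percentile of 76 genes for odorant, pheromone and taste receptors; it lay at 5.47, 5.45, 5.48, 5.71 and 5.56 in replicates 1 to 5. A gene was counted above background when limma's one-sided moderated test over the 5 arrays gave a p under 0.05 after Benjamini-Hochberg adjustment. By this rule 36 of 63 members (57.1%) lay above background, against 74.8% of all 18118 genes tested. The members' means had a median of 6.32, against 8.94 over all genes tested. A stricter background from 40 genes restricted to other organs, at 7.93 to 8.92 per array, left 20 of 63 members (31.7%), against 52.8% of the genes tested. The 90th and 99th percentiles of the receptor genes gave 40 and 29 members, against 79.4% and 66.8% of the genes tested. A receptor set with other families, added after the data were seen, gave 39, against 78.2%. Different probe sets bind with different strength, so levels are not ranked between genes, and the number of arrays limits the precision. P-values measure only the spread between these 5 samples.

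The labelled identity was compared with marker genes. All 8 alveolar type 2 markers lay above background, with an average signal per array of 14.16 to 14.30, and so did all 8 ciliated markers, with 8.26 to 9.84. The organ-restricted background left 8 of 8 and 5 of 8, against 52.8% of the genes tested. Markers of other cells were above background too, beside 74.8% of all genes tested. The counts were 7 of 7 for alveolar type 1, 7 of 8 for fibroblasts and 6 of 6 for smooth muscle. They were 8 of 8 for endothelium, 8 of 8 for macrophages, 6 of 7 for neutrophils and 4 of 4 for club cells. The club markers Scgb1a1, Scgb3a2, Cyp2f2 and Scgb3a1 had means of 14.50, 14.31, 13.16 and 9.09. Cardiac muscle had 6 of 6, mast cells 3 of 5, mesothelium 2 of 4, erythroid cells 2 of 3 and cartilage 2 of 5. In the fibroblast and neutrophil lists the exceptions were Lum (5.42 ± 0.94) and the neutrophil receptor gene Cxcr2 (4.76 ± 0.24). In a bulk sample, fewer cells of a type and less RNA per cell cannot be told apart, and the cell type that gave a member's signal was not tested. Replicate 1 had the highest signal of the spiked-in bioB and bioC control probe sets, 12.57 against 11.63 to 11.79 in the others. Replicate 3 had the largest gap between the 3′ and 5′ probe sets of Actb, 0.845 against 0.542 to 0.599, and of Gapdh, 1.67 against 1.27 to 1.60.

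**Figure D1:**
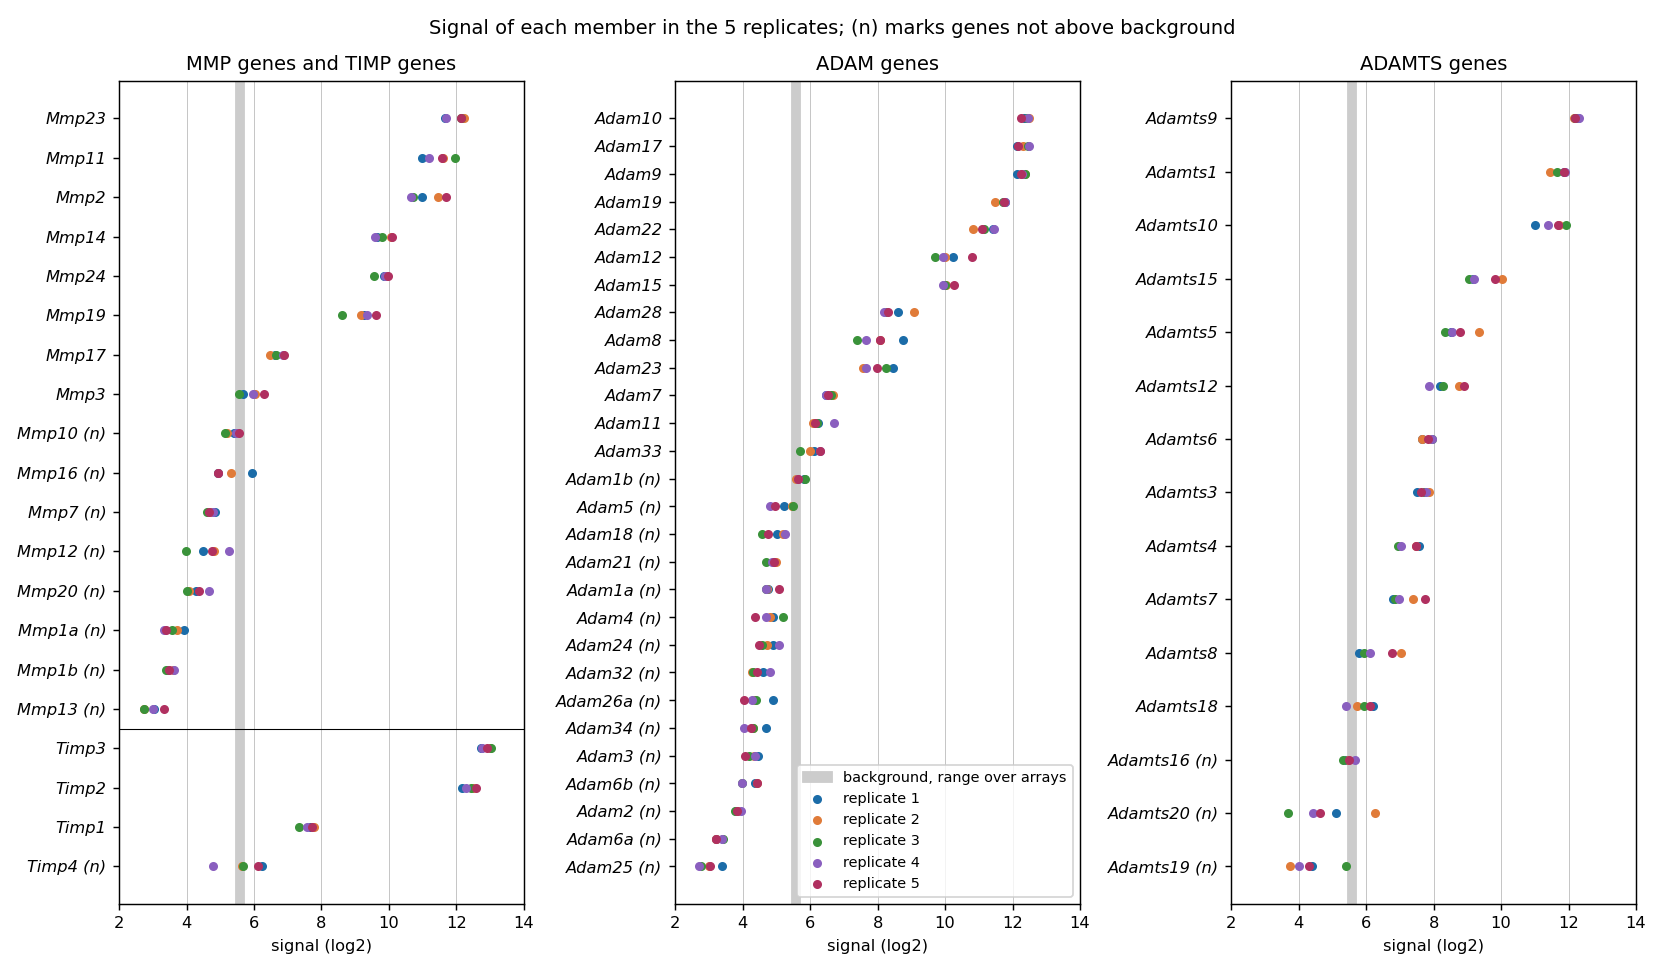
Signal (log2) of each of the 63 members in each of the 5 replicates, by family, with the range of the background over the arrays as a grey band and (n) marking genes not above background. Of the members, 36 lie above background and 27 do not. The points of Adamts9, Adam10 and Adam9 lie close together, while those of Mmp2, Adam8 and Adamts8 are spread out.

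The Mmp genes are described by their place in the genome. Of 16 measured, 8 lay above background (50%, against 74.8% of all genes tested). These were the gelatinase gene Mmp2, the stromelysin genes Mmp3 and Mmp11, the membrane-type genes Mmp14, Mmp17 and Mmp24, and Mmp19 and Mmp23. The collagenase genes Mmp1a, Mmp1b and Mmp13 were not above background, with means of 3.59, 3.51 and 2.97. Neither were the macrophage elastase gene Mmp12, the matrilysin gene Mmp7, the enamelysin gene Mmp20, Mmp10 and Mmp16. In the gene order of RefSeq for the assembly GRCm38.p6, Mmp13, Mmp12, Mmp1b, Mmp3, Mmp1a, Mmp10, Mmp20 and Mmp7 stand in 1 run on chromosome 9, which also holds Mmp8 and Mmp27, not analysed here. Of these 8 members 1 lay above background, Mmp3, with means from 2.97 to 5.90. Of the 8 Mmp members elsewhere in the genome 7 did, with means from 5.21 to 11.97, the exception being Mmp16. With the organ-restricted background the counts were 0 of 8 and 6 of 8, against 52.8% of the genes tested.

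**Figure D2:**
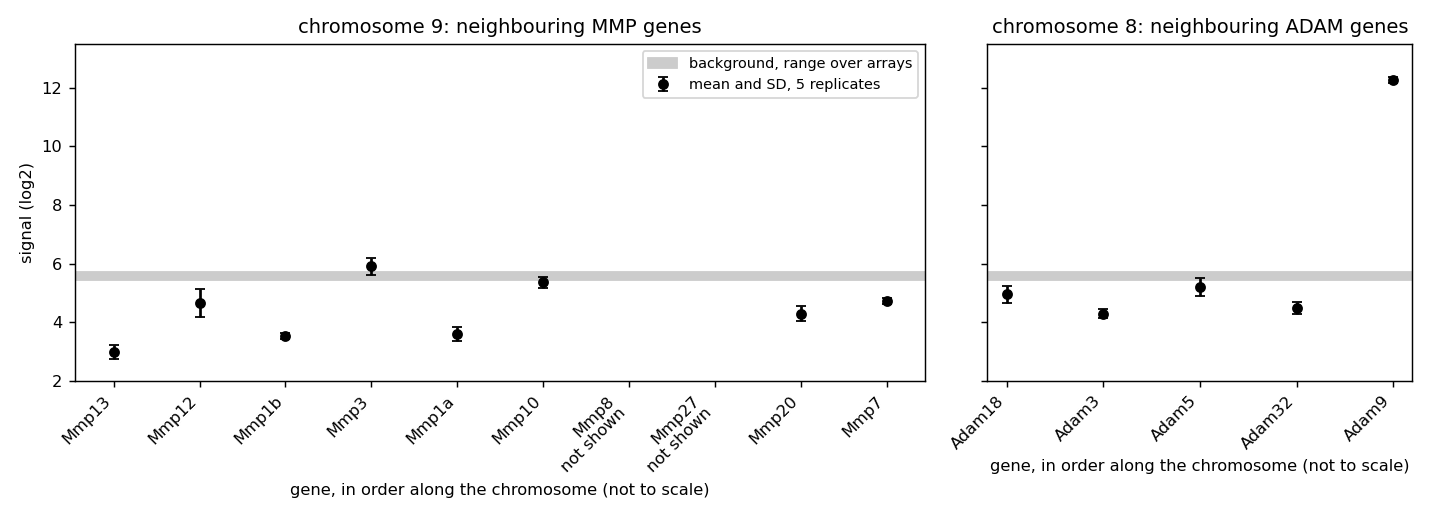
Mean signal (log2) and SD over the 5 replicates for neighbouring Mmp genes on chromosome 9 and neighbouring Adam genes on chromosome 8, in gene order and not to scale, with the background as a grey band. Only Mmp3 (5.90) and Adam9 (12.28) stand above background in their runs.

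The promoters of the chromosome 9 run are shown because these neighbours shared both their low signals and short sequence motifs. RefSeq promoter windows matched 36 of the 63 members (41 windows), and the 250 bases before each start were searched for TGANTCA, which reads the same on both strands and is the binding motif of the AP-1 factors Fos and Jun, and for TATAAA on both strands. The AP-1 motif was in 8 of 8 genes of the run and TATAAA in 7 of 8, all but Mmp12. Over all 27025 genes with a window these shares were 7.82% and 14.3%, and 1.45% held both. The run was singled out for these features, and its genes are neighbours of 1 family. Its 8 genes are therefore not independent, and the shares are given as description only. The first base of the AP-1 motif lay 35 to 95 bases before the start, and that of the nearest TATAAA 7 to 58 bases before it. The stretches below end 1 base before the start, are from GRCm38.p6 on the plus strand, and carry both motifs in capitals. They span chr9:7272404-7272513 for Mmp13, chr9:7445712-7445821 for Mmp3, chr9:7464031-7464140 for Mmp1a, chr9:7502232-7502341 for Mmp10, chr9:7628121-7628230 for Mmp20 and chr9:7691980-7692089 for Mmp7.
Mmp13: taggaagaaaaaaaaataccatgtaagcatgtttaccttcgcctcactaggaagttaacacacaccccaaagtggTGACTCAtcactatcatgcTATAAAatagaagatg
Mmp3: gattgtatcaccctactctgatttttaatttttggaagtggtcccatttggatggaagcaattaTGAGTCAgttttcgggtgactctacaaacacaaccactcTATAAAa
Mmp1a: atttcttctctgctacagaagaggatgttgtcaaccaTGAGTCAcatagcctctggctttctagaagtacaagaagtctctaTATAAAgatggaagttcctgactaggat
Mmp10: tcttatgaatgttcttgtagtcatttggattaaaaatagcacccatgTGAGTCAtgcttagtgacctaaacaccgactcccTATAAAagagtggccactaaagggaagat
Mmp20: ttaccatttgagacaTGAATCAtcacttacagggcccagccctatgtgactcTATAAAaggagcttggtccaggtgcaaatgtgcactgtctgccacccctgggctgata
Mmp7: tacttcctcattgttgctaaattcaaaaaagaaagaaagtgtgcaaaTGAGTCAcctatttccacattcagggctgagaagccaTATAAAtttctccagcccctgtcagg

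In contrast, 1 of the other 19 members above background with a window held the AP-1 motif, Adam19, and 1 held TATAAA, Adamts1. Their windows held more CpG, the dinucleotide at which mammalian DNA is methylated: a median of 16 per 250 bases (4 to 35 over 22 windows), against 0.5 (0 to 7 over 10 windows) in the run and 6 over all 32851 windows. CpG was not counted over all genes above background, so whether these members differ from other such genes was not tested. Of the 9 other members that were not above background and had a window, 1 held the AP-1 motif, Adam25, and 2 held TATAAA, Adam6a and Adam6b, with a median of 1 CpG (0 to 32). A motif match describes the letters of the window and does not show that a factor bound there. Windows of this group with few CpG, such as those of Timp1 and Adam8 with 6 each, are not among the stretches printed. For comparison with the run, 5 promoters of members above background follow in the direction of transcription, with each CG in capitals. They span chr10:75932503-75932612 for Mmp11 (minus strand), chr14:54431488-54431597 for Mmp14, chr2:155775232-155775341 for Mmp24, chr9:70678872-70678981 for Adam10 and chr10:86300302-86300411 for Timp3, on the plus strand unless stated.
Mmp11: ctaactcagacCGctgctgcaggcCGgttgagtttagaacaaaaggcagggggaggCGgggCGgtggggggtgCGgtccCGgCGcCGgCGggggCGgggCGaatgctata
Mmp14: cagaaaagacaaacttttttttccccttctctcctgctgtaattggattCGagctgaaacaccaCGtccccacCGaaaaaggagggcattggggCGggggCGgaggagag
Mmp24: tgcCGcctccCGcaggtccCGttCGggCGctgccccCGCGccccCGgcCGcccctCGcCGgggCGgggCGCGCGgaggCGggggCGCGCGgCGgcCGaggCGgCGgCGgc
Adam10: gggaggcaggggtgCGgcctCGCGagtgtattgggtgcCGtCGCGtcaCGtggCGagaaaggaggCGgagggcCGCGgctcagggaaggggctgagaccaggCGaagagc
Timp3: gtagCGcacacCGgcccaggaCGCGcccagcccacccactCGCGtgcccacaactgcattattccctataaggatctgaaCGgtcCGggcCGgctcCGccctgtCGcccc

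**Figure D3:**
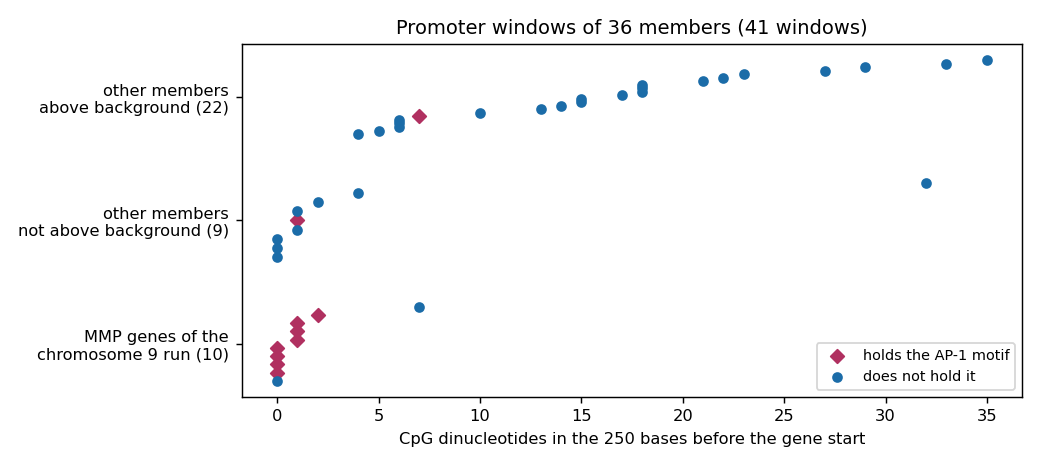
Number of CpG dinucleotides in the 250 bases before the start for 41 windows of 36 members, by group, with diamonds for windows that hold the AP-1 motif. The run on chromosome 9 lies between 0 and 7 with 8 diamonds among 10 windows, and the other members above background lie between 4 and 35 with 1 diamond.

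Among the secreted Mmp genes, Mmp2 encodes gelatinase A, which cuts denatured collagen and basement membrane collagen. Its signal was 10.99, 11.45, 10.71, 10.66 and 11.69 in replicates 1 to 5 (11.10 ± 0.45, SD, n = 5; limma adjusted p = 3.59e-15 against background). Replicates 2 and 5 were high and replicates 3 and 4 low, a span of 2.03-fold. A second Mmp2 probe set gave 9.48, 10.13, 9.34, 9.39 and 10.12, with the same pair of replicates on top.

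Mmp11, stromelysin-3, is a stromal enzyme activated inside the cell by furin. It was measured at 10.97, 11.59, 11.96, 11.17 and 11.58 (11.45 ± 0.39), lowest in replicates 1 and 4 and highest in replicate 3. Mmp19 had 9.26, 9.16, 8.61, 9.35 and 9.61 (9.20 ± 0.37), with replicate 3 below the other four. Mmp3, stromelysin-1, had 5.66, 6.02, 5.56, 5.98 and 6.29 (5.90 ± 0.29; limma adjusted p = 0.0108). These lay 0.37 log2 units above background on average, and the call was lost without replicate 5 (adjusted p = 0.0615). Mmp7, which epithelia secrete, gave 4.84, 4.74, 4.61, 4.77 and 4.65, and Mmp12, an elastase of macrophages, gave 4.49, 4.82, 3.98, 5.25 and 4.77. All 10 of these values were below the background of their arrays. Of the macrophage markers 8 of 8 were above it, against 74.8% of all genes tested. With the organ-restricted background 6 of 8 were, against 52.8%.

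Of the 5 genes of membrane-bound Mmp enzymes 4 lay above background, a share near the 74.8% of all genes tested. Mmp14, or MT1-MMP, activates the Mmp2 proenzyme at the cell surface together with Timp2. Its signal was 9.66, 10.06, 9.81, 9.58 and 10.09 (9.84 ± 0.23), and replicates 2 and 5 were again the highest. Mmp23, a membrane-tethered enzyme without the usual haemopexin domain, had 11.66, 12.21, 12.15, 11.70 and 12.13 (11.97 ± 0.26), with replicates 1 and 4 apart from the other three. Mmp24, or MT5-MMP, was measured at 9.84 ± 0.16 and the GPI-anchored Mmp17 at 6.70 ± 0.17. Mmp16 had 5.93 in replicate 1 and 4.93 to 5.32 in the others, and it was not above background (limma adjusted p = 1).

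Of the 4 inhibitor genes 3 lay above background (75%, against 74.8% of all genes tested). The SDs of these 3, from 0.14 to 0.18, can be set beside the median of 0.154 over all genes above background. Timp3, the inhibitor that binds to the matrix and also blocks ADAM17 and several ADAMTS enzymes, had 12.74, 13.00, 13.04, 12.75 and 12.90 (12.88 ± 0.14; limma adjusted p = 1.3e-19). Timp2, the partner of Mmp14 in Mmp2 activation, had 12.17, 12.49, 12.42, 12.30 and 12.58 (12.39 ± 0.16). In these probe sets replicates 1 and 4 were the lowest for both genes, but other probe sets gave another order. Another Timp2 probe set had 11.08, 11.45, 11.14, 11.26 and 11.49, with replicate 3 below replicate 4. Another Timp3 probe set had 12.53, 12.53, 12.45, 12.34 and 12.55, with replicate 1 above replicate 3. Timp1, a secreted inhibitor induced in inflammation and injury, had 7.67, 7.78, 7.33, 7.57 and 7.73 (7.62 ± 0.18). It was above the receptor background, but its margin over the organ-restricted one was -0.58. Timp4 lay around background, with 6.25, 5.63, 5.68, 4.80 and 6.13, and did not pass the test (limma adjusted p = 0.276). Without replicate 4, its lowest, it did (adjusted p = 0.0124).

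Of 28 ADAM genes 13 lay above background (46.4%, against 74.8% of all genes tested). For description they were grouped by catalytic activity and by known place of expression, so a difference between the groups is in part built in. All 9 genes of ADAM proteases expressed outside the reproductive tract lay above background. So did the 3 genes of catalytically inactive members, Adam11, Adam22 and Adam23. Of the 16 ADAM genes known chiefly from testis or epididymis, where they act in sperm maturation and fertilisation, 1 did: Adam7, an epididymal gene with one probe set, at 6.55 ± 0.093. With the organ-restricted background these counts were 6 of 9, 1 of 3 and 0 of 16, against 52.8% of the genes tested. Means of the 15 reproductive tract genes that did not pass ran from 2.98 for Adam25 to 5.71 for Adam1b, which was over background on 4 of 5 arrays (limma adjusted p = 0.122). On chromosome 8, Adam18, Adam3, Adam5 and Adam32, with means from 4.29 to 5.20, stand next to Adam9 at 12.28 ± 0.10.

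The sheddases ADAM10 and ADAM17 release Notch receptors, cadherins, tumour necrosis factor and ligands of the epidermal growth factor receptor from the cell surface. Adam10 had 12.34, 12.50, 12.42, 12.46 and 12.25 (12.39 ± 0.10; limma adjusted p = 8.52e-20), and Adam17 had 12.13, 12.30, 12.47, 12.49 and 12.16 (12.31 ± 0.17; limma adjusted p = 1.18e-19). Adam9, a related broadly expressed protease, had 12.12, 12.38, 12.37, 12.27 and 12.26. The replicates of these 3 genes spanned 1.19-fold, 1.28-fold and 1.19-fold. Their SDs of 0.0998, 0.167 and 0.102 can be set beside the median SD of 0.256 over the 36 members above background and 0.154 over all genes above background. For genes of their own signal limma fitted SDs of 0.0964, 0.0982 and 0.0988, so these genes were not less variable than others of their signal. The spread test of Adam17 gave F = 2.89 and did not pass (unadjusted p = 0.158).

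Adam19 and Adam12, the meltrin genes of developing mesenchyme, heart and muscle, differed in their spread. Adam19 had 11.79, 11.49, 11.71, 11.78 and 11.74, whereas Adam12 had 10.24, 9.99, 9.72, 9.93 and 10.81, a span of 2.13-fold with replicate 5 apart from the rest. Adam15, which carries an integrin-binding RGD motif in human, had 9.96, 10.04, 10.00, 9.94 and 10.28. Adam8, a gene of granulocytes and macrophages, had 8.75, 8.07, 7.39, 7.66 and 8.08 (7.99 ± 0.52). Replicate 1 was highest and replicate 3 lowest, 2.57-fold apart. Adam28, known from lymphocytes and epithelia, had 8.61, 9.08, 8.26, 8.20 and 8.30 (8.49 ± 0.37). Adam33, a gene of airway smooth muscle and fibroblasts linked to asthma, had 6.11, 6.01, 5.70, 6.31 and 6.28 (6.08 ± 0.25; limma adjusted p = 0.000563), and its margin over the 99th percentile of the receptor genes was -0.41.

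Adam22, Adam23 and Adam11 encode members without protease activity, best known as neuronal receptors of LGI proteins. Adam22 had 11.41, 10.82, 11.16, 11.47 and 11.09 (11.19 ± 0.26), Adam23 had 7.98 ± 0.37 and Adam11 had 6.28 ± 0.25. In these probe sets replicate 2 was the lowest for all 3 genes, as it was for 2694 of all 13552 genes above background. The other probe sets of Adam22 and Adam11 were lowest in replicates 3 (6.44) and 4 (4.52). For Adam23, another probe set was lowest in replicate 2 (5.55) and the last in replicate 3 (5.30).

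Of 15 ADAMTS genes 12 lay above background (80%, near the 74.8% of all genes tested), and Adamts16, Adamts19 and Adamts20 did not. The organ-restricted background left 5 (33.3%, against 52.8%), Adamts1, Adamts5, Adamts9, Adamts10 and Adamts15. The proteoglycanase genes, whose products cut versican and aggrecan, were above background in 6 of 7 cases (85.7%, against 74.8% of all genes tested). Adamts9, which also acts at the base of cilia, had 12.28, 12.17, 12.18, 12.31 and 12.19 (12.23 ± 0.064), with the lowest SD of the 36 members. Adamts1 had 11.86, 11.46, 11.66, 11.89 and 11.86 (11.74 ± 0.19).

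Adamts15, Adamts5 and Adamts8 were highest in replicate 2. Adamts15 had 9.16, 10.04, 9.06, 9.18 and 9.83 (9.45 ± 0.45), and Adamts5 had 8.51, 9.34, 8.32, 8.54 and 8.79 (8.70 ± 0.39). Adamts8 had 5.79, 7.02, 5.93, 6.10 and 6.75 (6.32 ± 0.54; limma adjusted p = 0.00056). In each of the 3 genes replicates 2 and 5 were above the other three. Adamts4, the other classical aggrecanase gene, had 7.58, 7.47, 6.93, 7.04 and 7.47, with replicate 1 the highest. Its second probe set gave 6.79, 7.17, 6.32, 6.79 and 7.28, with replicates 2 and 5 above the other three, so its probe sets disagreed on the order. Adamts1 and Adamts5 are neighbours on chromosome 16, and Adamts15 and Adamts8 on chromosome 9. Both genes of each pair were above background, but within the first pair replicate 2 was the lowest for Adamts1 and the highest for Adamts5.

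Adamts10 and Adamts6 act on fibrillin microfibrils. Adamts10 had 11.01, 11.71, 11.92, 11.39 and 11.69 (11.54 ± 0.35), lowest in replicates 1 and 4, while Adamts6 had 7.80 ± 0.15. Adamts7 and Adamts12 cut cartilage oligomeric matrix protein. Adamts12 had 8.20, 8.75, 8.28, 7.85 and 8.90 (8.40 ± 0.42) and Adamts7 had 6.79, 7.37, 6.87, 6.96 and 7.74 (7.15 ± 0.40), and both were highest in replicate 5 and next in replicate 2. The procollagen N-propeptidase gene Adamts3 had 7.69 ± 0.13. Adamts18 was just above background at 5.87 ± 0.33 (limma adjusted p = 0.0302), in 4 of 5 arrays. That call was lost without replicate 1, 3 or 5 (adjusted p = 0.108, 0.0601 and 0.0794).

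The spread between replicates was tested as each gene's variance over the 5 arrays against the variance limma fitted for genes of that signal (one-sided F test). After Benjamini-Hochberg adjustment the lowest p of a member was 0.81, so no member passed 0.05, and 0 of 18194 genes did. At an unadjusted p under 0.05, 8 of 63 members passed (12.7%, against 5.58% of all genes), 6 of them among the 36 above background (16.7%, against 6.2%). These were Mmp2 (unadjusted p = 0.0124, adjusted p = 0.81), Mmp11 (unadjusted p = 0.0171, adjusted p = 0.811), Adamts10 (unadjusted p = 0.0231, adjusted p = 0.817), Adam12 (unadjusted p = 0.0331, adjusted p = 0.858), Mmp23 (unadjusted p = 0.0468, adjusted p = 0.882) and Adamts15 (unadjusted p = 0.047, adjusted p = 0.882). The other two, Adamts19 and Adamts20, were not above background. A span of at least 1 log2 unit was seen in 7 of the 36 (19.4%, against 9.83% of genes above background): Mmp2, Mmp19, Adam8, Adam12, Adamts5, Adamts8 and Adamts12. That count was 5 with quantile normalization (13.9%, against 9.61%) or median centring (13.9%, against 9.73%). With the median over each gene's probe sets it was 3 (8.33%, against 8.86%), a share no higher than that of all genes.

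The replicates also followed an order across members, described here after the values had been seen. Of the 36 members above background 21 (58.3%) were highest in replicate 2 or 5, against 37.4% of all genes above background, and 1, Adam10, was lowest in replicate 5 (2.78%, against 14.7%). In 12 of 36 (33.3%, against 13.6%) replicates 2 and 5 were both above the other three: Mmp2, Mmp3, Mmp14, Mmp24, Timp1, Timp2, Adam15, Adamts5, Adamts7, Adamts8, Adamts12 and Adamts15. The count was 13 with quantile normalization and 12 with median centring. With the median over probe sets it was 13 (36.1%, against 14.5%), but only 9 of these were among the 12 named. For Adam15 the order rests on 1 probe set, and its other probe sets, also over background, did not show it. In one of them replicate 4 (8.08) was above replicate 2 (8.05). In the others replicate 5 (6.08 and 6.12) was below replicates 1 and 4. The median difference of the 36 members from their own means was -0.09, 0.10, -0.05, -0.10 and 0.12 in replicates 1 to 5, against -0.02 to 0.02 over all genes above background. Median centring gave -0.10, 0.12, -0.06, -0.06 and 0.10, with the same signs.

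Several marker lists were high in replicates 2 and 5 too, without matching the members in the other replicates. Replicates 2 and 5 were above the others for 6 of 6 smooth muscle markers, 4 of 6 cardiac muscle markers and 4 of 7 fibroblast markers above background. The count was 0 of 8 for alveolar type 2, endothelial, macrophage and ciliated markers and 1 of 7 for alveolar type 1 markers. The median difference from the gene mean was -0.12, 0.35, -0.63, 0.04 and 0.43 for smooth muscle markers and 0.11, 0.31, -0.55, -0.17 and 0.31 for fibroblast markers in replicates 1 to 5. For cardiac muscle markers it was 0.37, 0.43, -1.57, -0.06 and 0.85. These lists were lowest in replicate 3, whereas the members' medians were lowest in replicates 1 and 4. The median difference stayed between -0.07 and 0.08 for alveolar type 2 markers. The average signal per array ranged from 8.77 to 9.80 for smooth muscle and from 9.80 to 10.95 for fibroblast markers. Replicate 3 was also the replicate with the largest 3′ to 5′ gap. The part of these cell types, or of RNA quality, in the members' values was not tested.

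A different order was seen in Mmp11, Mmp23, Adamts10, Timp3 and Adam7, where replicates 2, 3 and 5 were above 1 and 4 but replicates 2 and 5 were not both above 3. With Mmp14, Timp2, Adam15 and Adamts12, which have both orders, 9 of 36 members (25%, against 18.5%) had replicates 2, 3 and 5 above 1 and 4. For Adam15 this order too rests on 1 probe set. The markers can be set beside it. Of the 7 alveolar type 1 markers 6 had replicates 2, 3 and 5 above 1 and 4, with median differences of -0.13, 0.12, 0.09, -0.12 and 0.05. With the median over probe sets 5 of 36 members had this order (13.9%, against 17.4%). Adam8 had neither order. Its difference from its mean was largest in replicate 1, where the median difference of the neutrophil markers was 0.50, and lowest in replicate 3, where it was -1.13. In replicate 4, where it was 0.93, Adam8 was below its mean. The ciliated markers, with 1.06, 0.34, -0.57, -0.45 and -0.41 in replicates 1 to 5, were also highest in replicate 1 and lowest in replicate 3. The part of these cell types in the members' values was not tested.

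**Figure D4:**
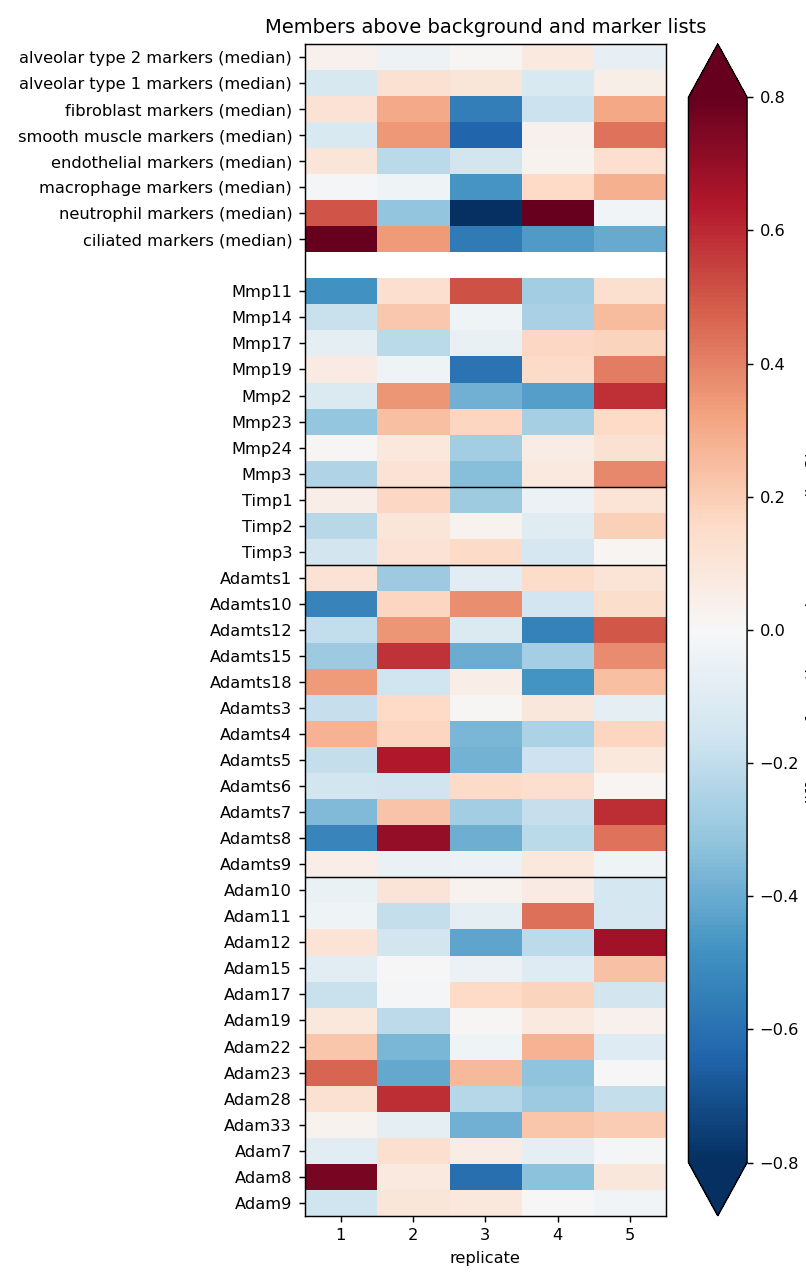
Difference of each replicate from the gene's own mean (log2, colour scale from -0.8 to 0.8) for the 36 members above background, below the median of the same difference for 8 marker lists. Replicates 2 and 5 are mostly red and replicate 3 mostly blue for Mmp2, Adamts5, Adamts8 and Adamts15 and for the fibroblast and smooth muscle lists, while Adam10, Adam9 and Adamts9 are pale throughout.

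Where a gene had more than 1 probe set, as 29 of 63 members had, the probe sets often differed. Of the members above background, 10 had another probe set whose mean was at background. For Mmp24 the probe sets had means of 9.84, 5.43 and 4.54, and with the median over probe sets Mmp24, Adam11, Adam33 and Adamts18 were not above background. In Mmp14 all 3 probe sets placed replicates 2 and 5 above 1 and 4. However, the probe set with 9.26, 9.88, 9.76, 9.27 and 9.69 had replicate 3 above replicate 5. In Adam12 both placed replicate 5 first and replicate 3 last. In Adamts10 the second probe set ran the other way, with 8.13, 7.37, 7.62, 8.17 and 7.85, highest in replicates 1 and 4. With the median of its probe sets Adamts10 did not pass the spread test (unadjusted p = 0.669), so its order between replicates rests on 1 probe set.

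**Figure D5:**
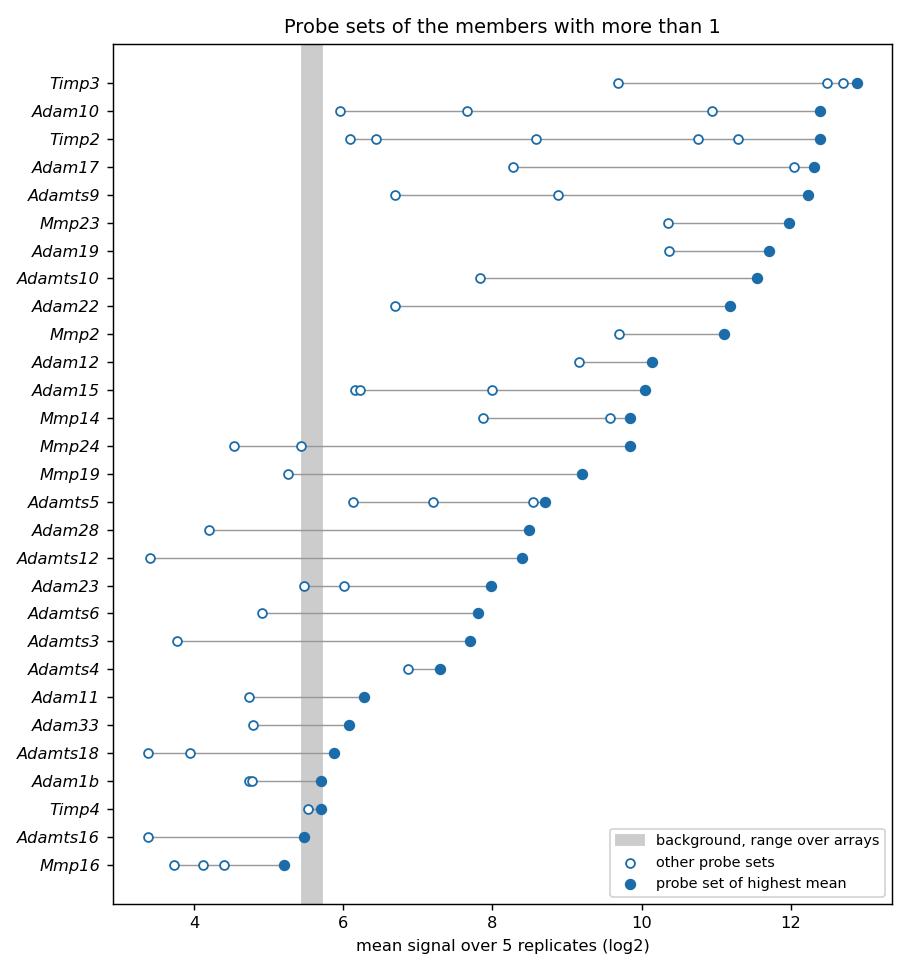
Mean signal over the 5 replicates (log2) of every probe set of the 29 members with more than 1, with the probe set of highest mean filled and the background as a grey band. In Mmp2, Mmp23, Timp3 and Adam12 every probe set lies above the band, while Mmp24, Mmp19, Adam28 and Adamts12 have at least 1 below it.

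Genes that act with the members were taken from lists made for the purpose. Of 16 activators and anchors 14 lay above background (87.5%, against 74.8% of all genes tested). Furin, the proprotein convertase that activates membrane-type Mmp and ADAM proenzymes, was measured at 13.06 ± 0.033. Reck, a membrane-anchored inhibitor of Mmp enzymes, had 9.96 ± 0.26, and Bsg, the Mmp inducer also called EMMPRIN, had 13.17 ± 0.041. The epithelial serine protease genes St14 and Prss8 had 11.93 ± 0.054 and 11.91 ± 0.093. Plau, the urokinase gene, and Plg, the plasminogen gene, were not above background, with means of 4.53 and 4.73, although the urokinase receptor gene Plaur was, at 8.57 ± 0.38.

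Of the 9 partners of ADAM10 and ADAM17 measured, 8 lay above background (88.9%, against 74.8% of all genes tested), the exception being Tspan10 at 5.31 ± 0.15. The iRhom genes Rhbdf1 and Rhbdf2, needed for the maturation of ADAM17, had 11.39 ± 0.23 and 10.23 ± 0.12. The tetraspanin genes Tspan5, Tspan14 and Tspan15, whose products carry ADAM10 to the cell surface, had 10.87 ± 0.21, 11.39 ± 0.13 and 11.28 ± 0.094. Of 25 ligands and receptors that these enzymes shed, 23 did (92%), among them Notch2 (13.15 ± 0.12), Cdh1 (13.42 ± 0.080), the alveolar type 1 receptor gene Ager (14.68 ± 0.015) and Sdc1 (14.10 ± 0.073). The growth factor genes Epgn and Nrg1 did not pass (limma adjusted p = 0.424 and 0.204). Hbegf had 10.50, 9.78, 9.82, 10.27 and 9.47, and Ereg had 9.17, 8.31, 8.59, 9.01 and 7.69. Both of these EGF receptor ligand genes were highest in replicates 1 and 4 and lowest in replicate 5 (spread test, unadjusted p = 0.0396 and 0.0372). They were the only 2 of the 25 past an unadjusted p of 0.05 in that test, which 5.58% of all genes passed. After adjustment 0 of 18194 genes passed.

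Of 17 matrix substrates 16 lay above background (94.1%, against 74.8% of all genes tested), all but the aggrecan gene Acan at 5.43 ± 0.23. Vcan, the versican gene and a main ADAMTS substrate, had 10.52, 11.07, 10.39, 10.64 and 11.25, highest in the same replicates as Adamts15. Col1a2 had 12.64, 12.92, 12.06, 12.39 and 13.07, and Tnc, the tenascin-C gene, had 11.22, 11.76, 10.89, 11.41 and 12.03. The basement membrane genes Col4a1 and Col4a2 had 13.73 ± 0.070 and 13.58 ± 0.069, with replicate 3 the highest in both. At an unadjusted p under 0.05, 8 of the 17 passed the spread test, against 5.58% of all genes. Several of these substrates, Col1a1, Col1a2, Col3a1 and Dcn, are also in the fibroblast marker list, so the lists are not separate.

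Of 12 related proteases and ADAMTS-like proteins 7 lay above background (58.3%, below the 74.8% of all genes tested). Bmp1, the procollagen C-proteinase gene of the astacin family, had 11.38 ± 0.25, and its relatives Tll1 and Tll2 and the meprin genes Mep1a and Mep1b were below background. The ADAMTS-like genes Adamtsl1 and Adamtsl3, which encode matrix proteins without a protease domain, had 10.33 ± 0.28 and 9.12 ± 0.38.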

How the data were processed

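Total RNA of the 5 sorted samples was amplified and biotin-labelled with NuGEN kits, per the labels' protocols. The deposited table holds 1 log2 value per probe set and array. The log base was inferred from the range of 2.46 to 15.24. The software, background correction, normalization and genome build were not given in the sources used here, and 0 value columns were left unused. Of 45101 probe sets, named through a platform annotation of 2016, 34958 had 1 symbol, 932 several and 9211 none.

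Values minus the array's receptor background were fitted in limma 3.58.1 (R 4.3.3; lmFit with an intercept, eBayes with trend), and p-values were adjusted by Benjamini-Hochberg over all genes tested. The spread test divided each gene's variance by limma's fitted variance (trend and robust; F on 4 and 4.22 degrees of freedom). Both were tested on simulated data. There the adjusted spread test recovered 6% of 100 genes whose SD was multiplied by 5, and 91% of 100 with it multiplied by 20. An absence of adjusted calls therefore says little. Promoter windows came from RefSeq for GRCm38.p6, searched in Python 3.11.15.

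The members and lists were chosen with earlier results of these data known. Values per replicate are given for all Timp genes, a chosen set of Mmp, Adam and Adamts genes and members that vary. Values per replicate of Adam22, Adamts7, Adamts8 and Mmp16 outside that rule, and of partner genes, were chosen after they were seen. Alternatives were other background sets and percentiles, probe set rules, normalizations and left-out replicates.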

Additional observations from a re-analysis of the deposited data

Results flagged for a closer look

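In 5 of 63 members, and in 2 of the array measures, 1 replicate stood apart from the other four by Dixon's test, and chance flags about 1 in 20 groups. Adam11 was highest in replicate 4, at 6.72 with the next at 6.24. Adam15 was highest in replicate 5, at 10.28 with the next at 10.04. Adam19 was lowest in replicate 2, at 11.49 with the next at 11.71, and Mmp24 was lowest in replicate 3, at 9.56 with the next at 9.85. Adam1a, which was not above background, was highest in replicate 5, at 5.08 with the next at 4.74. Of the array measures, the bioB and bioC controls were highest in replicate 1, at 12.57 with the next at 11.79, and the 3′ to 5′ gap of Actb was largest in replicate 3, at 0.845 with the next at 0.599. The part of these array measures in the members' values was not tested.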

How the results depend on the processing

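The organ-restricted background moved the counts above background furthest, to 20 of 63 members (36 with the receptor background), 7 Adam genes (13), 5 Adamts genes (12), 9 activators and anchors (14) and 3 astacins and ADAMTS-like genes (7). It turned the margin over background negative for 14 members: Adam7 (-1.64), Adam8 (-0.20), Adam11 (-1.91), Adam23 (-0.21), Adam33 (-2.11), Adamts3 (-0.50), Adamts4 (-0.90), Adamts6 (-0.39), Adamts7 (-1.05), Adamts8 (-1.88), Adamts18 (-2.32), Mmp3 (-2.29), Mmp17 (-1.50) and Timp1 (-0.58). The 99th percentile of the receptor genes left 29 members and turned Adam11 (-0.21), Adam33 (-0.41), Adamts8 (-0.17), Adamts18 (-0.62) and Mmp3 (-0.58). The 90th percentile gave 40, and a receptor set with other families, added after the data were seen, gave 39. Other probe set rules, quantile normalization, median centring and no variance trend gave 32 to 36. Without 1 replicate the members above background numbered 34 to 37, Mmp genes 7 to 8, Timp genes 3 to 4, Adam genes 13 and Adamts genes 11 to 12. The partner lists did not change when 1 replicate was left out: activators and anchors 14, ADAM10 and ADAM17 partners 8, shed ligands and receptors 23, astacins and ADAMTS-like genes 7 and matrix substrates 16.

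Members past the spread test at an unadjusted p under 0.05 numbered 8, 4 when genes not above background were left out of the fit (36 members tested), and 6 to 9 without 1 replicate. With an adjusted p the count was 0 in all of these settings. Adam12 was lost without replicate 5 (unadjusted p = 0.29) and with the median over probe sets (0.0592), and Adamts10 without replicate 1 (0.0969) and with that median (0.669). Adamts15 was lost without replicate 2 (0.126) or 5 (0.0595), without the robust option (0.0533) and when only genes above background were fitted (0.0504). Mmp23 was lost without replicate 1 (0.0612), 2 (0.0567) or 4 (0.0669), with median centring (0.0553), with the median over probe sets (0.114) and when only genes above background were fitted (0.0522). No paired analysis was possible because there was 1 group. Arrays give no counts, and the number of arrays limits the precision.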
